A study of Mus musculus with 10 samples.

Results

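The Mmp, Adam and Adamts genes encode zinc-dependent proteinases that cut proteins outside the cell and at its surface, and the Timp genes encode their tissue inhibitors. All protein-coding genes were taken whose symbol is Mmp, Adam or Adamts with a number and at most 1 letter, or Timp1 to Timp4. This gave 80 genes of the 57185 with counts, namely 23 Mmp, 34 Adam, 19 Adamts and 4 Timp genes. Of these, 44 (12 Mmp, 12 Adam, 16 Adamts and 4 Timp) had over 10 counts in 6 or more of the 10 mice and were tested together with all other genes, 13453 in total.

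Matrix metalloproteinases (MMPs) degrade collagens, gelatins and other matrix proteins, and most are made as inactive precursors that need a further cut. ADAMs are anchored in the membrane and release the outer parts of growth factors, adhesion molecules and receptors, while ADAMTS proteins are secreted and cut proteoglycans and procollagens. TIMPs sit in the active site of these enzymes, and the balance of enzymes and inhibitors sets matrix turnover in the dilating heart.

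RNA was sequenced from ventricular tissue (the apical portion) of 10 male mice, 5 MLPKO and 5 cRADΔ/Δ-MLPKO, with 1 library per mouse, to ask how loss of RAD alters gene expression in an established dilated cardiomyopathy. MLPKO mice lack muscle LIM protein, encoded by *Csrp3*, and all 10 animals also carried floxed *Rrad*, the gene for RAD, an inhibitor of the L-type calcium channel. In the cRADΔ/Δ-MLPKO group, named MLPKO-cRADKO in the sample labels, *Rrad* was deleted by MYH6-MerCreMer, a recombinase made in cardiomyocytes and switched on by tamoxifen. Both groups got 1 intraperitoneal dose of tamoxifen (100 mg/kg) at 10 weeks of age, and hearts were taken 1 month later, at 16 weeks by the sample labels and 3.5 months by the study's methods. The MLPKO group had no recombinase, so an effect of the recombinase cannot be told apart from that of the *Rrad* deletion. The labels name the tissue left ventricle. The separate mice of a group are the replicates, and no healthy mice were analysed here.

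Total counts per mouse lay between 33457406 and 49965101 (median 43738141). The quasi-likelihood test of edgeR called 369 of 13453 genes (2.74%) at an adjusted p under 0.05, with 127 (0.944%) higher and 242 (1.8%) lower in cRADΔ/Δ-MLPKO. *Rrad* counts overlapped between the groups (log2 fold change −0.38, edgeR adjusted p = 0.290), and *Csrp3* transcripts were counted in every mouse (−1.08, edgeR adjusted p = 0.0667). Neither gene's counts are specific to the targeted exons. MLPKO mouse 2 stood apart from the rest, with a score of 45.3 on the first principal component of the tested genes (39.3% of the variance) against −18.9 to 19.0 in the other 9 mice. For *Timp1*, *Mmp2*, *Mmp14*, *Mmp15*, *Adam9*, *Adamts1*, *Adamts2*, *Adamts8* and *Adamts20* the fold change is also given without this mouse. The summed markers of 3 cell types did not overlap between the groups, and they are given after the members.

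The catalytic site of most of these enzymes is a run of 11 codons in which the codons 1, 5 and 11 encode the histidines that hold the zinc ion. A site of this form was found in the GENCODE coding sequence of 63 of the 76 proteinase genes and in 37 of the 40 that were tested. The 3 tested genes without it were *Adam11*, *Adam22* and *Adam23*, which are known as neural adhesion or receptor proteins without protease activity. The 33 bases are shown for the proteinase genes called here and for close relatives that they are compared with, 5′ to 3′ on the coding strand, with the 3 zinc-binding codons in capitals.
Adamts5: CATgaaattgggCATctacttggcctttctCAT
Adamts1: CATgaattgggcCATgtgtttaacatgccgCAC
Adamts15: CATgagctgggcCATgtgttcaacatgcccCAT
Adamts8: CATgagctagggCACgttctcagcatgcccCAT
Adamts20: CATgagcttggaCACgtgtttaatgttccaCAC
Adam19: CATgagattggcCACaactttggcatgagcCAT
Adam10: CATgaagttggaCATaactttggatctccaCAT
Mmp23: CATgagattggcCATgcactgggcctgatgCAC
Mmp15: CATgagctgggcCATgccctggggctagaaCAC
Mmp2: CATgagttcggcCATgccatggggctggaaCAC
On GRCm39 these sites lie at chr16:85674903-85684714 (minus strand), chr16:85596079-85596433 (minus strand), chr9:30822551-30822986 (minus strand), chr9:30864017-30864674 (plus strand) and chr15:94251559-94253177 (minus strand) for the 5 Adamts genes. Those of *Adam19* and *Adam10* are at chr11:46015877-46015909 (plus strand) and chr9:70661578-70668867 (plus strand), and those of *Mmp23*, *Mmp15* and *Mmp2* at chr4:155735985-155736017 (minus strand), chr8:96095213-96095245 (plus strand) and chr8:93565907-93565939 (plus strand). The site was split by an intron in 16 of the 16 tested Adamts genes and in *Adam10*, so that their coordinates span more than the bases shown, and it lay within 1 exon in 12 of the 12 tested Mmp genes and in *Adam19*. Codon 8 encodes glycine in *Adamts5* and in the Adam and Mmp genes shown. It encodes asparagine in *Adamts1*, *Adamts15* and *Adamts20* and serine in *Adamts8*. Among the 7 Adamts genes listed as proteoglycanases, *Adamts5* was the one with glycine at this codon.

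Of the 44 members tested, *Adamts5*, *Adam19*, *Adam10* and *Timp2* rose and *Mmp23* fell in cRADΔ/Δ-MLPKO at an edgeR adjusted p under 0.05. These 5 called members are 11.4% of the 44, against 2.74% of all genes tested, and the 4 higher ones are 9.09%, against 0.944%. The log2 fold change was above 0 for 30 members and below 0 for 14, with a median of 0.11 beside 0.011 over all genes tested, of which 7014 were higher and 6439 lower. Before adjustment 13 members (29.5%) had an edgeR p under 0.05, against 21.6% of all genes. DESeq2, the tool of the study, called 10 members (22.7%, 8 higher and 2 lower), against 9.65% of all genes. Normalized counts of the groups did not overlap for 7 members (15.9%), against 6.62% of all genes, and these were the 5 called members and *Mmp11* and *Adamts15*. Without MLPKO mouse 2, edgeR called 4 members, 3 higher and 1 lower. The number of called members fell to 1 without cRADΔ/Δ-MLPKO mouse 3 or 5 or MLPKO mouse 5, to 2 without cRADΔ/Δ-MLPKO mouse 2 or 4 or MLPKO mouse 1, and was 4 to 6 without any other single mouse. Calls among all genes ranged from 47 to 826 over these 10 fits, so the member counts cannot be read apart from that range.

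**Figure D1:**
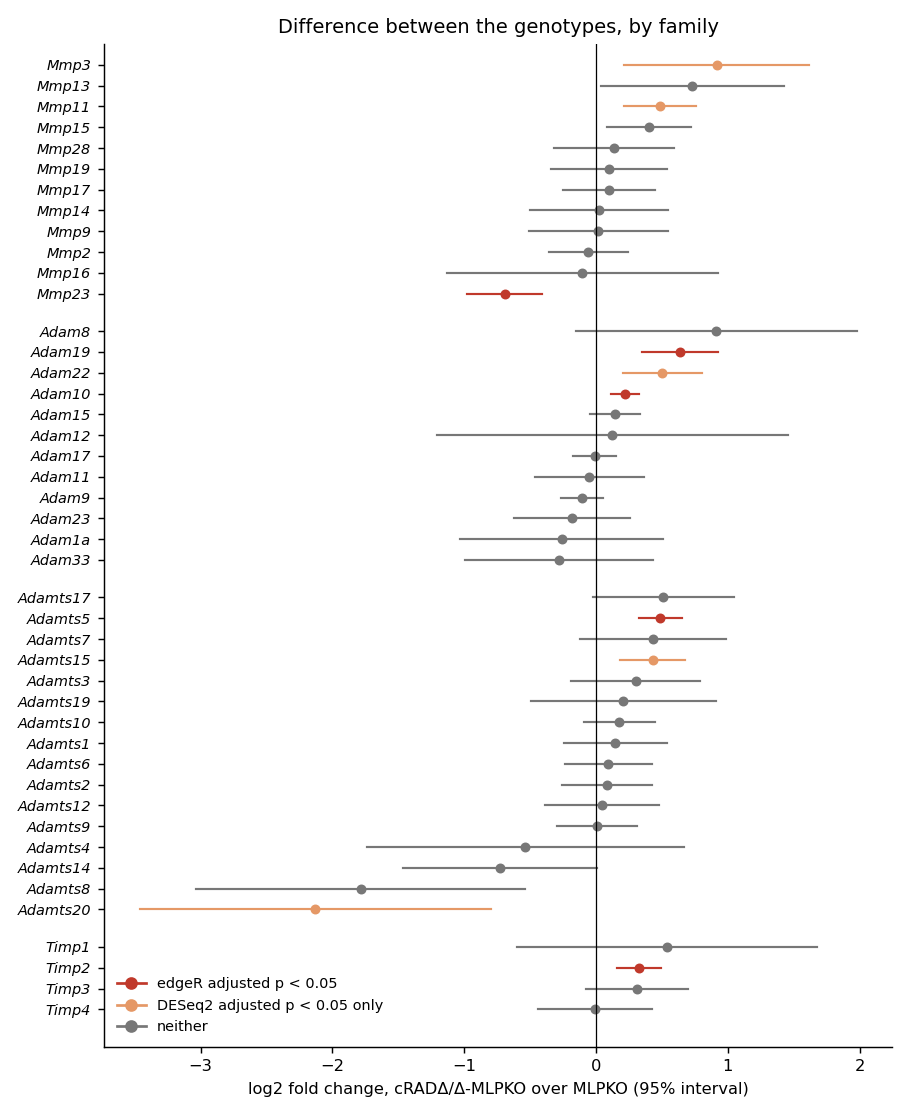
Log2 fold change of the 44 tested members, cRADΔ/Δ-MLPKO over MLPKO, with the 95% interval of the edgeR fit, sorted within each family. Of the red points (edgeR adjusted p under 0.05), 4 lie right of 0 and *Mmp23* lies left of it, while the widest intervals belong to low members such as *Adam12* and to *Adamts20* and *Adamts8*.

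Among the inhibitors, *Timp2* (chromosome 11, 118191887 to 118246566) rose, and the other 3 Timp genes did not pass the test. TIMP2 binds MMPs and, with the membrane-type enzyme MMP14, also takes part in activating the precursor of MMP2. Its normalized counts were 4988, 5809, 5874, 5968 and 5223 in MLPKO mice 1 to 5 and 6994, 7114, 7825, 6069.9 and 6916 in cRADΔ/Δ-MLPKO mice 1 to 5. Each cRADΔ/Δ-MLPKO mouse lay above each MLPKO mouse, although the highest MLPKO value and the lowest cRADΔ/Δ-MLPKO value, from mouse 4 in both groups, were close. The mean was 5572 ± 438 (SD, n = 5) without and 6984 ± 625 (SD, n = 5) with the deletion, that is, a log2 fold change of 0.33 ± 0.0761 (SE; edgeR adjusted p = 0.0470, DESeq2 adjusted p = 0.00356). The call was kept only without cRADΔ/Δ-MLPKO mouse 4, MLPKO mouse 2 or MLPKO mouse 4, with edgeR adjusted p from 0.035 to 0.105 over the 10 fits that leave out 1 mouse.

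*Timp3* (chromosome 10, 86136236 to 86185371), the inhibitor that stays bound to the matrix and also acts on ADAM17 and several ADAMTS enzymes, had 1932, 2817, 3977, 4423 and 3106 in MLPKO and 3794, 4460.1, 3712, 4196 and 4043 in cRADΔ/Δ-MLPKO. The cRADΔ/Δ-MLPKO mice were close together, while MLPKO mice 3 and 4 lay within their range and the other 3 below it. Its log2 fold change was 0.31, with a 95% interval of −0.073 to 0.70 (edgeR adjusted p = 0.332), and without MLPKO mouse 1, the lowest, it was 0.17 (edgeR adjusted p = 0.487). *Timp1* (chromosome X, 20736316 to 20740976), the inhibitor that is typically induced by injury and inflammation, had 149, 351, 73.4, 46.3 and 152 in MLPKO and 322, 103, 412, 145 and 136 in cRADΔ/Δ-MLPKO. Single mice of both groups were several-fold apart, and MLPKO mouse 2 was the highest of its group. The log2 fold change of *Timp1* was 0.54, with an interval of −0.60 to 1.68 that holds changes in both directions (edgeR adjusted p = 0.597). It was 1.07 without MLPKO mouse 2 (edgeR adjusted p = 0.211) and 0.20 without cRADΔ/Δ-MLPKO mouse 3 (edgeR adjusted p = 0.874). *Timp4* (chromosome 6, 115187773 to 115229336), known for its abundance in the heart, had 922, 897, 1653, 1493 and 1547 in MLPKO and 1416, 1203, 1431, 1554 and 875 in cRADΔ/Δ-MLPKO, and the groups overlapped over most of their range. Its log2 fold change was −0.0098 (interval −0.44 to 0.42, edgeR adjusted p = 0.983). Exons of *Timp3* and *Timp4* overlap those of *Syn3* and *Syn2* on the other strand, and the strand setting of the counting is not given, but *Syn3* and *Syn2* had means of at most 16.3 and 109 normalized counts.

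Levels of different genes were compared as normalized counts per kilobase of exon. *Timp2* was the highest of all 44 members, at 1407 per kilobase, followed within its family by *Timp3* at 448, *Timp4* at 168 and *Timp1* at 96.6. *Timp2* thus made up 66.4% of the summed Timp level. The summed level of the 4 inhibitors per kilobase was 1550, 1943, 2056, 2097 and 1829 in MLPKO and 2380.0, 2349, 2604, 2150 and 2229 in cRADΔ/Δ-MLPKO, without overlap. The same sum over the 12 tested Mmp genes was 2441, 2458, 2451, 2371 and 2268 in MLPKO and 2882, 2699, 2712, 2502 and 2694 in cRADΔ/Δ-MLPKO, also without overlap. The sums of the other families overlapped, at 1970.2 to 2234 in MLPKO and 2094 to 2374 in cRADΔ/Δ-MLPKO for the 12 tested Adam genes and 851 to 1169 and 966 to 1060.0 for the 16 tested Adamts genes. The ratio of the Timp to the Mmp sum was 0.791 ± 0.0943 (SD, n = 5) without and 0.869 ± 0.0549 (SD, n = 5) with the deletion, and its ranges, 0.635 to 0.884 and 0.826 to 0.960, overlapped. These sums follow the few highest genes of each family and were not tested.

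**Figure D2:**
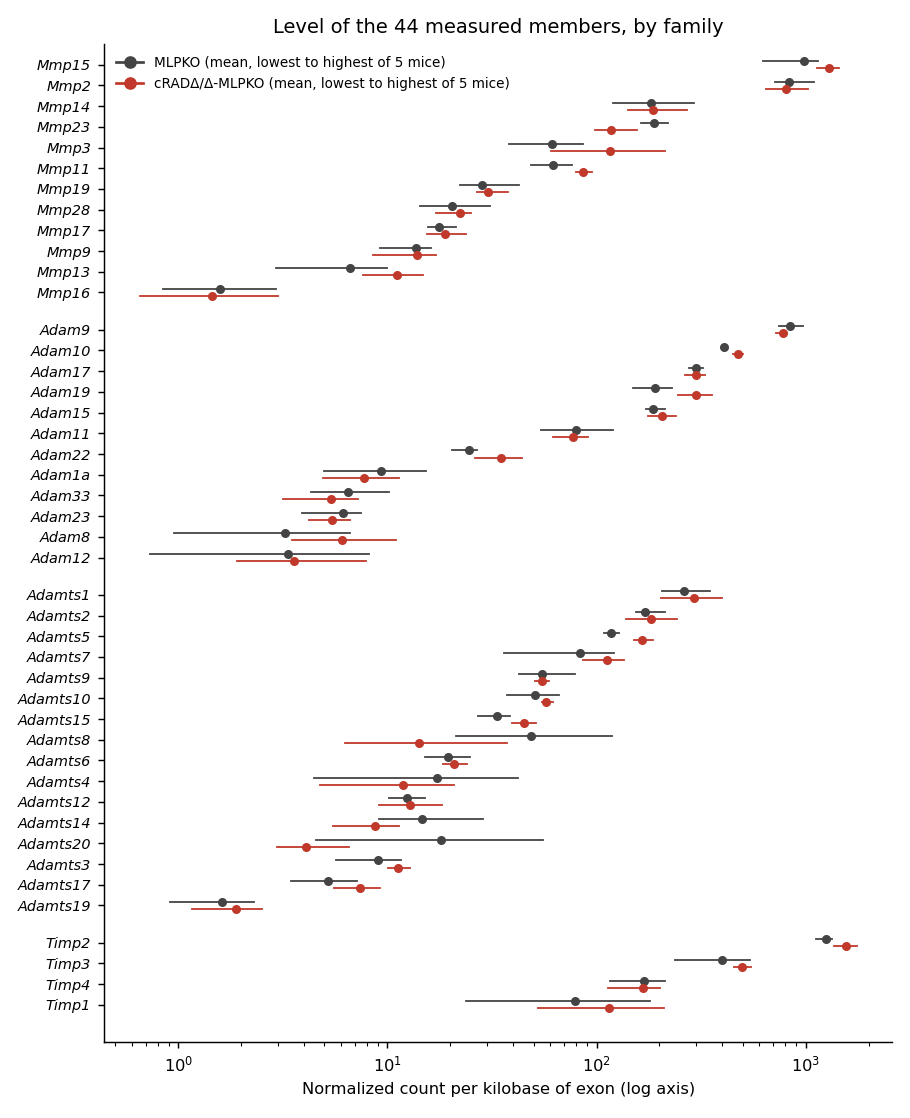
Normalized count per kilobase of exon of each tested member on a log axis, by family, with the mean (point) and the lowest to highest mouse (line) of 5 MLPKO and 5 cRADΔ/Δ-MLPKO mice. *Timp2*, *Mmp15*, *Mmp2* and *Adam9* lie near the upper end and *Mmp16* at the lower end, at 1.51 per kilobase.

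Among the MMPs, *Mmp23* fell, and none of the 12 tested genes rose at an edgeR adjusted p under 0.05. *Mmp23* (chromosome 4, 155735111 to 155738378) encodes a membrane-anchored MMP with an immunoglobulin-like domain and without the cysteine switch that keeps most MMP precursors inactive. Its normalized counts were 533, 487, 588, 437 and 494 in MLPKO and 419, 317, 282, 263 and 294 in cRADΔ/Δ-MLPKO. No cRADΔ/Δ-MLPKO mouse reached the lowest MLPKO mouse, and cRADΔ/Δ-MLPKO mouse 1 was nearest to it. The mean was 508 ± 56.6 (SD, n = 5) without and 315 ± 61.4 (SD, n = 5) with the deletion, that is, a log2 fold change of −0.69 ± 0.130 (SE; edgeR adjusted p = 0.0238). The call was lost without cRADΔ/Δ-MLPKO mouse 2, 3, 4 or 5 or MLPKO mouse 1 or 5, with edgeR adjusted p from 0.011 to 0.070 when 1 mouse was left out. It was kept in all 10 other settings tried, DESeq2 among them. The study reported *Mmp23* and *Adamts8* as significantly halved. Here the *Mmp23* mean was 315 against 508, and *Adamts8* passed neither test (edgeR adjusted p = 0.102, DESeq2 adjusted p = 0.0545). The set of genes tested here was not exactly that of the study, which bears on adjusted p-values close to the threshold. *Mmp23* and *Adamts8* were both picked by the study on these same mice, so their direction is not independent evidence.

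The 2 gelatinases did not pass the test. *Mmp2* (chromosome 8, 93553902 to 93580049), which cuts denatured collagen and basement membrane, was the second highest MMP gene at 821 per kilobase. It had 2508, 3869.8, 2931, 2626 and 2856 normalized counts in MLPKO and 3616, 2508, 2892, 2284 and 2908 in cRADΔ/Δ-MLPKO, a log2 fold change of −0.058 with an interval of −0.36 to 0.24 (edgeR adjusted p = 0.850). MLPKO mouse 2 was the highest of the 10 mice, and the value without it was 0.056 (edgeR adjusted p = 0.826). *Mmp9* (chromosome 2, 164780439 to 164797771), the gelatinase typical of leukocytes, was far lower at 13.7 per kilobase and had 43.95, 34.1, 57.1, 59.5 and 58.4 normalized counts in MLPKO and 43.3, 55.8, 31.6, 63.5 and 61.7 in cRADΔ/Δ-MLPKO. Its log2 fold change was 0.017, with an interval of −0.51 to 0.54 (edgeR adjusted p = 0.976), which allows a change of about 0.5 in either direction.

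Of the membrane-type MMPs, *Mmp15* (chromosome 8, 96078895 to 96101708) was the highest MMP gene at 1134 per kilobase, 44.5% of the summed Mmp level. It had 6118, 3394, 5791, 6210.3 and 4859.6 in MLPKO and 6125, 7758, 6516, 7427 and 7011 in cRADΔ/Δ-MLPKO. All cRADΔ/Δ-MLPKO mice lay above 4 of the 5 MLPKO mice, and only MLPKO mouse 4 exceeded the lowest of them, while MLPKO mouse 2 was far below. The log2 fold change of 0.40 (interval 0.086 to 0.72) did not pass the test (edgeR adjusted p = 0.134, DESeq2 adjusted p = 0.0671), and without MLPKO mouse 2 it was 0.28 (edgeR adjusted p = 0.108). *Mmp14* (chromosome 14, 54668878 to 54682821), the activator of the MMP2 precursor, had 1159, 1796, 796, 743 and 1136 in MLPKO and 1667, 938, 1161, 873 and 1084 in cRADΔ/Δ-MLPKO. The ranges almost coincided, with MLPKO mouse 2 the highest, and the log2 fold change was 0.024 (interval −0.50 to 0.55, edgeR adjusted p = 0.966). Without that mouse it was 0.25 (edgeR adjusted p = 0.496).

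The 2 tested stromelysin genes were called higher by DESeq2 and not by edgeR over all 10 mice. *Mmp11* (chromosome 10, 75759055 to 75772330), stromelysin-3, which is cut to its active form inside the cell by furin, had 189, 231, 268, 232 and 171 in MLPKO and 312, 302, 295, 281 and 337 in cRADΔ/Δ-MLPKO, without overlap. Its log2 fold change was 0.48 ± 0.126 (SE; edgeR adjusted p = 0.0609, DESeq2 adjusted p = 0.0101), and edgeR called it without MLPKO mouse 3 (0.58, edgeR adjusted p = 0.0413). Exons of *Mmp11* share 155 bases with *Chchd10* on the other strand, and the counts of *Chchd10* were not read here. *Mmp3* (chromosome 9, 7445822 to 7455975), stromelysin-1, which activates other MMP precursors, had 139.5, 155, 84.9, 68.4 and 106 in MLPKO and 208, 171, 382, 109.5 and 172 in cRADΔ/Δ-MLPKO. cRADΔ/Δ-MLPKO mouse 3 was the highest by a wide margin, and the groups overlapped. The log2 fold change of *Mmp3* was 0.91 ± 0.321 (SE; edgeR adjusted p = 0.126, DESeq2 adjusted p = 0.0419), and without that mouse it was 0.59 (edgeR adjusted p = 0.259). The other 5 tested MMP genes had log2 fold changes from −0.10 for *Mmp16* to 0.73 for *Mmp13*, a collagenase, and the lowest edgeR adjusted p among them was 0.209.

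Of the 12 tested ADAM genes, *Adam19* and *Adam10* rose and none fell, with 6 log2 fold changes above and 6 below 0. *Adam19* (chromosome 11, 45946775 to 46038172), or meltrin beta, sheds neuregulin and is needed for the septa and valves of the developing heart. It had 1692, 1341, 1093, 1233 and 1659 in MLPKO and 2026, 1797, 2614, 2343 and 2140.0 in cRADΔ/Δ-MLPKO. The groups did not overlap, and the lowest cRADΔ/Δ-MLPKO mouse, number 2, was just above the highest MLPKO mouse, number 1. The mean was 1404 ± 264 (SD, n = 5) without and 2184 ± 311 (SD, n = 5) with the deletion. The log2 fold change was 0.64 ± 0.133 (SE; edgeR adjusted p = 0.0319, DESeq2 adjusted p = 0.000426), the largest of the called members that rose. The call was lost without cRADΔ/Δ-MLPKO mouse 3, 4 or 5 or MLPKO mouse 5, with edgeR adjusted p from 0.037 to 0.074 when 1 mouse was left out.

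*Adam10* (chromosome 9, 70586221 to 70687511) encodes the protease that cuts Notch receptors and N-cadherin at the cell surface. It had 2312, 2266, 2274, 2288 and 2236 in MLPKO and 2542, 2801, 2751, 2503 and 2641 in cRADΔ/Δ-MLPKO, without overlap. The MLPKO mice were very close together, and their SD of 28.1 was below the 48.2 that counting error alone gives at this level. The mean was 2275 ± 28.1 (SD, n = 5) without and 2648 ± 129 (SD, n = 5) with the deletion. The log2 fold change was small, at 0.22 ± 0.0490 (SE; edgeR adjusted p = 0.0402, DESeq2 adjusted p = 0.00140). The call was kept only without MLPKO mouse 4, with edgeR adjusted p from 0.042 to 0.095 when 1 mouse was left out.

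*Adam17* (chromosome 12, 21373510 to 21423672), the converting enzyme of tumour necrosis factor and the closest relative of *Adam10*, had 2376, 2747, 2529, 2417 and 2751 in MLPKO and 2632, 2837, 2679, 2270.0 and 2306 in cRADΔ/Δ-MLPKO. The cRADΔ/Δ-MLPKO mice held both the highest and the lowest value, and the log2 fold change was −0.011 with a narrow interval of −0.18 to 0.15 (edgeR adjusted p = 0.953). *Adam9* (chromosome 8, 25439626 to 25507096), a widely expressed sheddase, was the highest ADAM gene at 808 per kilobase, 38.0% of the summed Adam level. It had 3235, 4243, 3523, 3495 and 3732 in MLPKO and 3555, 3425, 3492, 3146 and 3312 in cRADΔ/Δ-MLPKO, with MLPKO mouse 2 the highest, a log2 fold change of −0.11 (interval −0.26 to 0.052, edgeR adjusted p = 0.427) and of −0.046 without that mouse (edgeR adjusted p = 0.700). *Adam22* (chromosome 5, 8122352 to 8418263), a receptor of the LGI proteins without protease activity, had 458, 402, 511, 521 and 529 in MLPKO and 581, 518, 684, 873 and 779 in cRADΔ/Δ-MLPKO. The overlap was limited to MLPKO mice 4 and 5, which lay above cRADΔ/Δ-MLPKO mouse 2. Its log2 fold change of 0.50 passed in DESeq2 and not in edgeR (edgeR adjusted p = 0.0687, DESeq2 adjusted p = 0.0149), and it passed in edgeR with the mouse number as a replicate block (edgeR adjusted p = 0.0348). Its exons share 6137 bases with *Sri* on the other strand, which had a log2 fold change of 0.21 (edgeR adjusted p = 0.190), so reads of both genes cannot be told apart if strand was not used. The other 7 tested ADAM genes ranged from −0.28 for *Adam33* to 0.91 for *Adam8*, a leukocyte ADAM, with a lowest edgeR adjusted p of 0.307.

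Among the ADAMTS genes, *Adamts5* rose, and it was the member with the lowest adjusted p. *Adamts5* (chromosome 16, 85653061 to 85698716) encodes a secreted protease that cuts aggrecan and versican and is needed for the remodelling of the cardiac valves. It had 1395, 1191, 1259, 1376 and 1208 in MLPKO and 1799, 1655, 2032, 1663 and 1873 in cRADΔ/Δ-MLPKO. The lowest cRADΔ/Δ-MLPKO mouse was well above the highest MLPKO mouse. The mean was 1286 ± 94.6 (SD, n = 5) without and 1804 ± 157 (SD, n = 5) with the deletion, that is, a log2 fold change of 0.49 ± 0.0735 (SE; edgeR adjusted p = 0.0151, DESeq2 adjusted p = 1.41e-06). It was called in all 10 fits that leave out 1 mouse (edgeR adjusted p from 0.010 to 0.044) and in all 10 other settings tried.

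**Figure D3:**
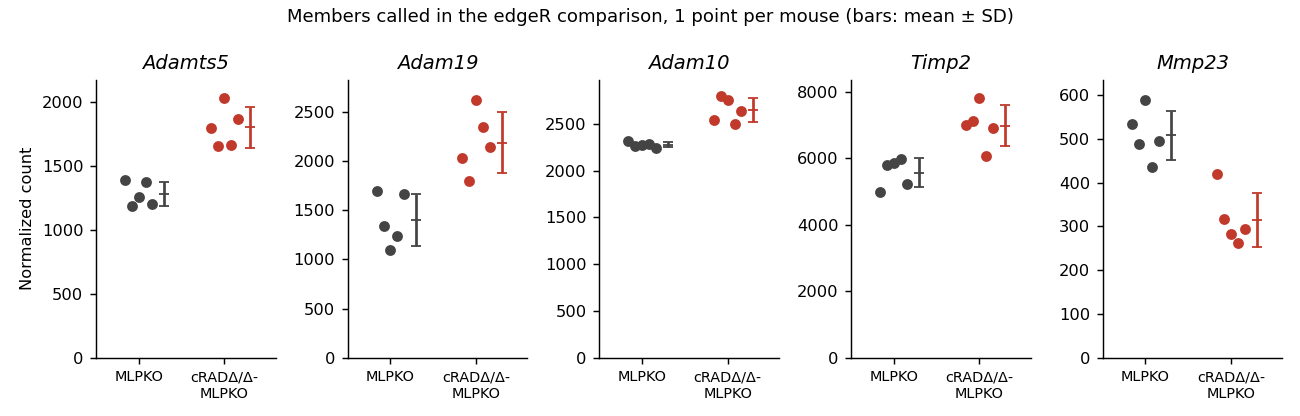
Normalized counts of the 5 called members, 1 point per mouse, in 5 MLPKO and 5 cRADΔ/Δ-MLPKO mice, with the mean ± SD beside the points and axes from 0. In each panel the groups do not overlap, with *Mmp23* lower and the other 4 higher in cRADΔ/Δ-MLPKO.

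*Adamts1* (chromosome 16, 85590579 to 85600009), another proteoglycanase, is the neighbour of *Adamts5* on chromosome 16, with 53051 bases between the genes, and was the highest ADAMTS gene at 277 per kilobase. It had 1125, 1914, 1279, 1352 and 1539 in MLPKO and 1377, 1732, 1108, 2182 and 1573 in cRADΔ/Δ-MLPKO. The groups overlapped widely, and the log2 fold change of 0.15 did not pass the test (interval −0.24 to 0.54, edgeR adjusted p = 0.683), nor did that of 0.27 without MLPKO mouse 2 (edgeR adjusted p = 0.383). A second pair, *Adamts15* and *Adamts8*, lies on chromosome 9 with 19945 bases between the genes, and the fold changes had opposite signs. *Adamts15* (chromosome 9, 30810451 to 30833863), a further proteoglycanase, had 405, 362, 354, 339.6 and 283 in MLPKO and 536, 414, 517, 464 and 418 in cRADΔ/Δ-MLPKO, without overlap. Its log2 fold change was 0.43 ± 0.112 (SE; edgeR adjusted p = 0.0609, DESeq2 adjusted p = 0.0110).

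*Adamts8* (chromosome 9, 30853809 to 30875134), a proteoglycanase first described as an inhibitor of vessel growth, had 161, 558, 165, 100.3 and 159.6 in MLPKO and 176, 44.1, 51.9, 29.5 and 34.6 in cRADΔ/Δ-MLPKO. MLPKO mouse 2 was far above all others, and cRADΔ/Δ-MLPKO mouse 1 was above the other 4 MLPKO mice. The log2 fold change was −1.78 (standard error 0.572) and did not pass either test (edgeR adjusted p = 0.102, DESeq2 adjusted p = 0.0545). It was −1.15 without MLPKO mouse 2 (edgeR adjusted p = 0.180) and −2.51 without cRADΔ/Δ-MLPKO mouse 1 (edgeR adjusted p = 0.0383). *Adamts20* (chromosome 15, 94166170 to 94363299), which cuts versican in the developing skin and palate, had 95.6, 669, 141, 55.1 and 128 in MLPKO and 79.2, 36.0, 40.6, 49.7 and 42.1 in cRADΔ/Δ-MLPKO. Again MLPKO mouse 2 was far above the rest, and among the other mice the groups overlapped in part. The log2 fold change of −2.13 passed in DESeq2 and not in edgeR (edgeR adjusted p = 0.0759, DESeq2 adjusted p = 0.0189), and it was −1.10 without MLPKO mouse 2 (edgeR adjusted p = 0.0749) and called without MLPKO mouse 4 (−2.38, edgeR adjusted p = 0.0347).

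Of 4 markers of atrial cardiomyocytes, *Nppa*, which the failing ventricle is also known to express, made up nearly all of the sum. *Nppa* was highest in MLPKO mouse 2, at 100665 normalized counts, and lay between 4385 and 73737 in the other MLPKO mice and between 6042 and 17719.7 in cRADΔ/Δ-MLPKO. The other 3 were highest in cRADΔ/Δ-MLPKO mouse 1, with 188 for *Myl7*, 810.2 for *Myl4* and 14.8 for *Sln*, against 77.3, 138 and 0 in MLPKO mouse 2. *Sln* was at 0 in 5 of the 10 mice. The summed level was 100880 in MLPKO mouse 2, 39632, 9654, 4498 and 73995 in the other MLPKO mice and 6136 to 18097 in cRADΔ/Δ-MLPKO, so the group ranges overlapped. Of the 3 atrial markers tested, 2 were higher, 1 was lower and none was called. The part of these markers in the values of *Adamts8* and *Adamts20* was not tested.

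*Adamts2* (chromosome 11, 50492787 to 50698400), the main procollagen N-proteinase, had 1612, 2000.4, 1459, 1486 and 1515 in MLPKO and 2042, 1365, 2302, 1315 and 1549 in cRADΔ/Δ-MLPKO, a log2 fold change of 0.087 (interval −0.25 to 0.43, edgeR adjusted p = 0.800) and of 0.17 without MLPKO mouse 2 (edgeR adjusted p = 0.559). The groups overlapped, and all 3 procollagen N-proteinase genes missed the threshold. The other 10 tested ADAMTS genes had log2 fold changes from −0.73 for *Adamts14* to 0.51 for *Adamts17*, with a lowest edgeR adjusted p of 0.238. Of the 7 proteoglycanases, 4 had a fold change above 0 and 3 below. edgeR called *Adamts5* among them (14.3%, against 2.74% of all genes), and DESeq2 called *Adamts5* and *Adamts15* higher and *Adamts20* lower (42.9%, against 9.65% of all genes). The 10 tested Adamts genes with glycine at codon 8 included 9 with a fold change above 0, and the 6 with asparagine or serine included 3. Of all genes tested, 7014 of 13453 were higher. edgeR called 1 of the 10, *Adamts5*, and a link of this codon with the fold change was not tested.

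The 44 members also varied within the groups. Their median coefficient of variation was 26.7% in MLPKO and 19.5% in cRADΔ/Δ-MLPKO, and it was lower in cRADΔ/Δ-MLPKO for 29 members. MLPKO mouse 2 was the highest of 10 mice for 12 members and the lowest for 7, and so at either end for 19, more than any other mouse. Among the 12 were *Mmp2*, *Mmp14*, *Adam9*, *Adamts4*, *Adamts8*, *Adamts9* and *Adamts20*, and among the 7 were *Mmp15*, *Mmp13*, *Adamts7* and *Adamts5*. cRADΔ/Δ-MLPKO mouse 3 followed, as the highest for 12 members and the lowest for 2, MLPKO mouse 5 was the lowest for 10, and cRADΔ/Δ-MLPKO mouse 5 was at either end for only 3.

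**Figure D4:**
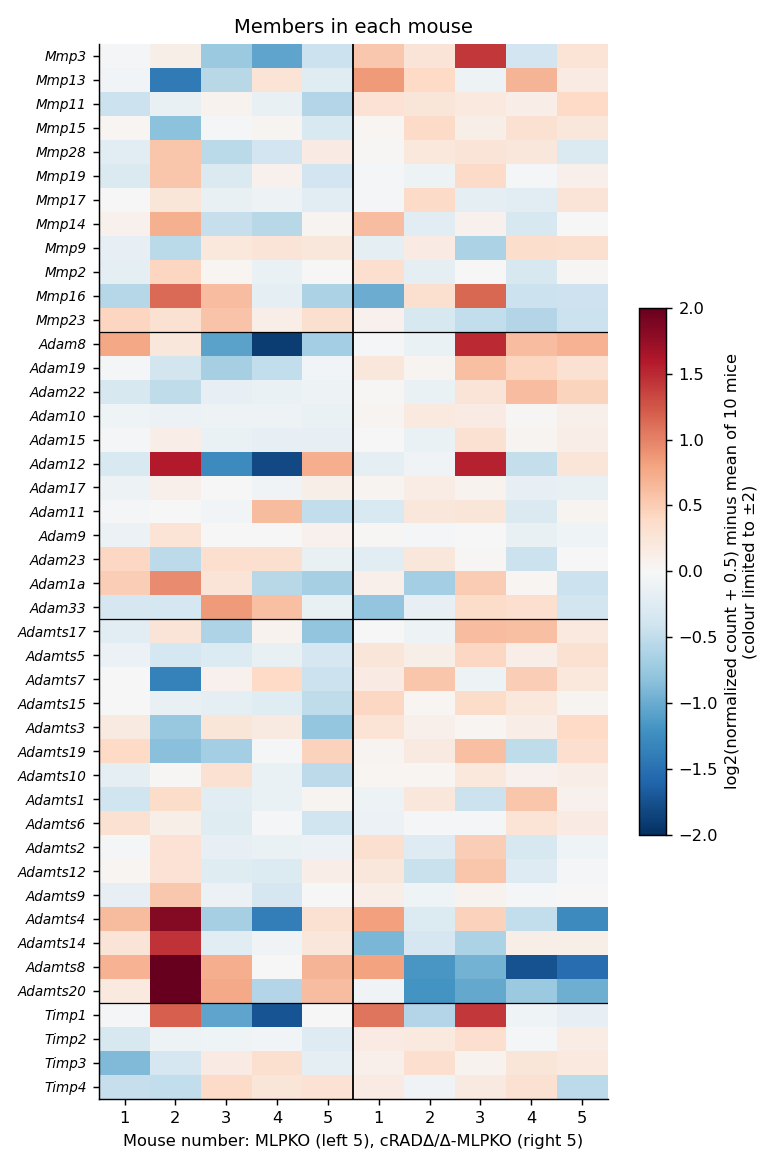
Each tested member in each mouse, as log2(normalized count + 0.5) minus the mean of the 10 mice, with families separated by lines and the colour limited to ±2. The column of MLPKO mouse 2 holds the darkest red cells, at *Adamts8* and *Adamts20*, and the rows of *Adamts5* and *Mmp23* change colour between the groups.

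Of the 36 members that were not tested, 19 had no count in any mouse, and 22 had at most 3 counts in every mouse. Many are ADAM genes known from the testis, and of the 14 Adam genes on chromosome 8 only *Adam9* was tested. The cluster of 10 Mmp genes on chromosome 9 (7272514 to 7699587) held 2 tested members, *Mmp3* and *Mmp13*. Within it, *Mmp12*, the macrophage elastase, had raw counts of 12, 4, 6, 10 and 2 in MLPKO and 8, 4, 84, 28 and 44 in cRADΔ/Δ-MLPKO, so that 3 cRADΔ/Δ-MLPKO mice were above all others. In a fit without the filter its log2 fold change was 2.33 (edgeR adjusted p = 0.124). *Mmp24*, a membrane-type MMP on chromosome 2, had raw counts of 21, 25, 6, 4 and 4 in MLPKO and 2, 0, 0, 2 and 0 in cRADΔ/Δ-MLPKO, without overlap but with few counts in every mouse. Its fitted log2 fold change was −3.78 (edgeR adjusted p = 0.0715), which depends on how counts of 0 are handled. Both were named after their values were seen.

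Activators, partners and substrates of these enzymes were read from the same fit. Of 69 such genes 60 were tested, and 3 (5%) were called, 1 higher and 2 lower, against 2.74% of all genes, with 31 fold changes above and 29 below 0. *Thbs2*, a matricellular protein known to bind MMP2, was higher, with 603, 532, 831, 902 and 547 in MLPKO and 1101, 1338, 1154, 1248 and 1423 in cRADΔ/Δ-MLPKO, that is, a log2 fold change of 0.87 ± 0.149 (SE; edgeR adjusted p = 0.0196). The groups did not overlap. *Cdh2*, the N-cadherin of the intercalated disc and a substrate of ADAM10, was lower, with 17013, 17679, 15878, 15919 and 18429.8 in MLPKO and 13278, 12949, 10596, 13815 and 13073 in cRADΔ/Δ-MLPKO, that is, a log2 fold change of −0.41 ± 0.0779 (SE; edgeR adjusted p = 0.0239). These are RNA levels, and cutting of the protein was not measured. *Adamtsl5*, a secreted relative of the ADAMTS enzymes without a protease domain, was also lower, with 7523, 8551, 7426, 5813 and 7833 in MLPKO and 6286, 5129.8, 5387, 5851 and 5407 in cRADΔ/Δ-MLPKO, that is, a log2 fold change of −0.40 ± 0.0956 (SE; edgeR adjusted p = 0.0482). The groups overlapped, since MLPKO mouse 4 lay below cRADΔ/Δ-MLPKO mice 1 and 4. None was called by edgeR among the 10 tested activators and other inhibitors, the 8 partners of ADAM10 and ADAM17 and the 5 astacin proteinases and enhancers. DESeq2 called 8 of the 60 (13.3%, against 9.65% of all genes). Among these was *Nrg1*, the neuregulin gene, with a log2 fold change of −2.13 and overlapping groups (edgeR adjusted p = 0.0551, DESeq2 adjusted p = 0.00105). *Nrg1* was named after its values were seen.

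The RNA came from all cells of the tissue, so fewer cells of a type and less RNA per cell cannot be told apart. All 5 cardiomyocyte markers were lower in cRADΔ/Δ-MLPKO (1 called, *Tnnt2*), with a summed level of 2.01e+06 to 2.37e+06 in MLPKO and 1.48e+06 to 1.97e+06 in cRADΔ/Δ-MLPKO. All 5 endothelial markers were higher (1 called, *Tek*), at 27170 to 30591 against 31802 to 36988. Of 4 tested smooth muscle and pericyte markers 3 were higher (2 called, *Acta2* and *Rgs5*), at 18835 to 23694 against 25400 to 34432. *Rgs5* and *Acta2* made up most of that sum, while *Myh11* (log2 fold change 0.0062) and *Pdgfrb* (−0.013) barely differed. *Tagln*, also on this list, was under the filter, with means of 9.12 normalized counts in MLPKO and 8.06 in cRADΔ/Δ-MLPKO. The ranges of the cardiomyocyte, endothelial and smooth muscle sums did not overlap, which was also so for the 5 called members. All 7 macrophage markers were higher and none was called, at 3890.2 to 5788 against 4966 to 8885, while of 7 fibroblast markers 2 were higher and 5 lower with none called, at 46157 to 70285 against 37109 to 68316. No marker of these 5 lists was at 0 in all mice. Summed markers of neutrophils, blood, the epicardium and skeletal muscle overlapped between the groups with none called, and *Myh4* of skeletal muscle was at 0 in every mouse. The part of these cell types in the values of the members and of the related genes, *Cdh2* among them, was not tested.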

How the data were processed

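Ventricular RNA of 10 mice was enriched for polyadenylated transcripts and sequenced as 1 library per mouse. The authors checked reads with FastQC, mapped them onto GRCm39 by STAR and summed them by gene with featureCounts. The deposited values are raw counts per gene. Versions, annotation, strand and read-pair settings are not given in the sources used here. Counts from 1 to 20 were even in 73.7% to 80.3% of cases, so a pair may have been counted as 2 reads.

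Genes were named by GENCODE M39 (56629 of 57185 IDs matched), and 3491 of 60676 IDs without values were left out. As in the study's methods, genes needed over 10 counts in 6 or more of the 10 mice, and predicted genes (Gm, Rik) were dropped. IDs without a GENCODE name were kept here, while the study also excluded non-annotated genes. Main comparisons used TMM and the quasi-likelihood test of edgeR 4.0.16 (R 4.3.3), with Benjamini-Hochberg adjustment over 13453 genes. A normalized count is the count scaled to the mean effective library size. Alternatives were DESeq2 1.42.0 (the study's tool), limma-voom (limma 3.58.1), RLE and upper-quartile factors, robust dispersion, no filter, filterByExpr, predicted genes kept, halved counts, the mouse number as a block, and leaving out each mouse. The edgeR, DESeq2 and limma steps were tested on simulated counts. Tables and figures used Python 3.11.15.

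Levels between genes are per kilobase of merged exons, with the longest transcript as an alternative. Named with values per mouse were members called by edgeR or DESeq2, *Timp1* to *Timp4*, the 3 highest members per kilobase of each proteinase family, *Mmp2*, *Mmp9*, *Mmp14*, *Mmp23*, *Adam10*, *Adam17*, *Adamts1*, *Adamts5* and *Adamts8*, members whose log2 fold change reached 1 in size, and genes of the related lists called by edgeR. These are 22 of the 44 members. The members and lists were chosen with earlier results of these data known. Zinc-binding sites were read from GENCODE coding sequences of canonical transcripts. With 5 mice per group, p-values weigh the difference between the groups against the spread between these mice. Intervals are 95% intervals of the fit.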

Additional observations from a re-analysis of the deposited data

Results flagged for a closer look

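In 6 of 88 groups of 5 mice (each of the 44 members in each genotype), 1 mouse lay far from the rest, with a gap to its neighbour of more than 0.71 of the whole range. Chance flags about 1 in 20 groups. MLPKO mouse 2 gave 4 of the 6, all as the highest mouse. It had 558 normalized counts of *Adamts8* (next mouse 165), 669 of *Adamts20* (next 141), 168 of *Adamts14* (next 73.6) and 2000.4 of *Adamts2* (next 1612). In cRADΔ/Δ-MLPKO, mouse 1 had 176 of *Adamts8* (next 51.9) and mouse 3 had 83.6 of *Adam12* (next 33.7). *Adam12*, meltrin alpha, is an ADAM that appears in regenerating and remodelling tissue. MLPKO mouse 2 was also high for *Adam12*, at 86.5, without passing the limit.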

How the results depend on the processing

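DESeq2 called 1298 genes in place of 369, 10 members in place of 5 (8 higher, 2 lower) and 8 related genes in place of 3. The cause was not tested. Leaving out 1 mouse gave 47 to 826 called genes, 1 to 6 called members (1 to 4 higher, 0 to 2 lower), 0 to 6 related genes and a median log2 fold change of the members of 0.074 to 0.20. It ended 26 single calls and made 3. RLE and upper-quartile factors, no filter, filterByExpr, predicted genes kept, limma-voom, robust dispersion and halved counts kept each count of calls within 1.5 times. *Adam10* was not called without the filter (adjusted p = 0.0597) and *Timp2* not with predicted genes kept (0.0504). Over 20 settings no called member changed sign, while 6 of the 22 named members (*Timp4*, *Mmp2*, *Mmp9*, *Mmp14*, *Adam17* and *Adamts2*, none called) did so in 1 to 7 of them. The median level per kilobase was 77.2 with the longest transcript in place of 46.6, and 9 of the 10 highest members were the same.

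Mouse numbers are shared by the groups but belong to different animals, and same-numbered mice had correlations of −0.039 to 0.20, with 2 of 5 nearest to their own number. With the replicate block edgeR called 281 genes, 3 members (2 higher, 1 lower) and 5 related genes. *Adam19*, *Adam10* and *Timp2* were lost (adjusted p = 0.0623, 0.0876 and 0.0707) and *Adam22* was gained (0.0348).

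Members with few counts, such as *Adam12* and *Adam8*, have wide intervals (−1.21 to 1.46 and −0.15 to 1.98). Depth limits what can be said of the 36 members under the filter.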
